A study of Mus musculus with 4 samples.

Results

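DNA methylation of differentiated colonic epithelial cells was compared between birth, postnatal day 0 (P0), and the end of suckling, postnatal day 21 (P21). The cells were sorted from the colon of C57 mice as positive for the epithelial cell adhesion molecule (EpCAM) and negative for enhanced green fluorescent protein (EGFP), which a knock-in Lgr5-EGFP-CreER allele expresses under control of the stem cell gene Lgr5. They made up 2 of the 4 whole-genome bisulfite sequencing (WGBS) libraries of the series. The other two held Lgr5-EGFP+ intestinal stem cells (ISCs) of the same ages, which were used to ask which change stem cells and their progeny share. Every library came from pooled mice of crosses between the knock-in line and wild-type C57 mice. Litters were pooled at P0 and reporter-positive offspring at P21, so pups without the allele, whose ISCs are EGFP-negative, may have been part of the P0 pool, and the knock-in allele is known to be silent in some crypts. The allele also encodes a Cre recombinase that tamoxifen activates, and the methods name no tamoxifen for these pools. EpCAM-positive, EGFP-negative cells are a mixture of absorptive, goblet and other epithelial types in proportions that the sort does not give. With 1 library per group there was no replicate, so each test compares 2 libraries and covers counting error only, never the spread between mice. Genes were ranked over 21410 protein-coding autosomal genes, and each was divided into its promoter (1000 bp on either side of the start site), last exon and remaining body.

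Methyl groups are added to cytosines followed by guanine (CpGs) by DNA methyltransferases, kept through cell division by Dnmt1, and removed by TET enzymes or diluted as cells divide. Promoters dense in CpGs are usually free of methylation, whereas most other CpGs in mammalian DNA are methylated, and regulatory elements that become active in a cell type commonly lose it. During suckling the mouse colon forms crypts, meets its microbiota and maternal antibodies, and passes from milk to solid food at weaning. Differentiated cells live for days and are replaced from ISCs, which divide throughout.

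Sequences of 7 leading genes are given for bins with a large change. Each is the 200-bp bin with the most certain change inside a leading promoter or last exon, read from the mm9 reference on the forward strand with CpGs in capitals, and bins that touch an untranslated region were passed over. The first group is from promoters that lost methylation, Pigr and Casp1 in or reaching into intron 1 and Tnfsf13 ahead of its start site.
Pigr chr1:132723801-132724000: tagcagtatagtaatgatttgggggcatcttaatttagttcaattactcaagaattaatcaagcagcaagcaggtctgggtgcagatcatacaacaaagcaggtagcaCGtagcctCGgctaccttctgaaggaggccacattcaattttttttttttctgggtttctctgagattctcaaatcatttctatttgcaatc
Casp1 chr9:5298801-5299000: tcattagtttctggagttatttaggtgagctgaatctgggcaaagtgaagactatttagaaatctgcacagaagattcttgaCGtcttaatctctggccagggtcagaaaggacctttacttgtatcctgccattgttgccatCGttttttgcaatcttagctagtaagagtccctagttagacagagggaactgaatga
Tnfsf13 chr11:69499401-69499600: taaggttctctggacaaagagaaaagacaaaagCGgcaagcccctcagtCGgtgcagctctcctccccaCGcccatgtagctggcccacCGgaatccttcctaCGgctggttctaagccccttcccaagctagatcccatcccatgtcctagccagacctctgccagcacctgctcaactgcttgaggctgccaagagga
The bin of Pigr held 2 CpGs and went from 92.8% methylated (69 calls) to 1.85% (54 calls) in differentiated cells, while ISCs went from 80.9% to 33.96%. The bin of Casp1, also with 2 CpGs, went from 77.2% to 1% and in ISCs from 86.4% to 1.19%. In Tnfsf13 the 5 CpGs went from 75.9% to 3.13%. The levels of these 3 bins at P21 were near 0 in differentiated cells. The second group is from 2 gaining promoters and 2 gaining last exons, shown because they hold many CpGs, which not every leading gain does, since the bins chosen in the same way for Cd200 and Mxra8 held 7 and 2.
Dnajb3 chr1:90102001-90102200: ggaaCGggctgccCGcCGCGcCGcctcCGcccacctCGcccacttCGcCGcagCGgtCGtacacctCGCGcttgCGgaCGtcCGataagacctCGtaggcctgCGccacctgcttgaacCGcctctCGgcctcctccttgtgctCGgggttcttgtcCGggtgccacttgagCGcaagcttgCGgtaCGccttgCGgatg
Hoxa3 chr6:52122401-52122600: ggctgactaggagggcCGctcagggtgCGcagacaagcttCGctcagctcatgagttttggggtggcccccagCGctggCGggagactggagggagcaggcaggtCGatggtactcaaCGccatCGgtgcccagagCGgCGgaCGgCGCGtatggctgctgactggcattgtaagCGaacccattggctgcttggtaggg
Mycn chr12:12944201-12944400: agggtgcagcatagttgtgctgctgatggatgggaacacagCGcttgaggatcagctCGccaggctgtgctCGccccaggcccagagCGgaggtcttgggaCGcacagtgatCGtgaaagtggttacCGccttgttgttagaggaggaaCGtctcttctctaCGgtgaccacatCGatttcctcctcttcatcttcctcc
Thra chr11:98629601-98629800: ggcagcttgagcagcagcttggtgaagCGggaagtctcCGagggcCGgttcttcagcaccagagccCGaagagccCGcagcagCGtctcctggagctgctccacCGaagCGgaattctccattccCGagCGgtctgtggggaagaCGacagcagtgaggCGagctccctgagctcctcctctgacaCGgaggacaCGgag
The bin of Dnajb3 lies in its only exon and in an intron shared by genes of the Ugt1a cluster, and its 26 CpGs rose from 10.7% to 51.6%. The bin in exon 1 of Hoxa3 has 14 CpGs and rose from 18.8% to 64.2%. In exon 3 of Mycn the 10 CpGs rose from 31.3% to 81.0%, and in exon 10 of Thra the 14 CpGs rose from 22.6% to 68.9%. ISCs rose at these 4 bins too, to 46.0%, 56.3%, 83.8% and 66.8%, respectively.

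The libraries of differentiated cells held 1188114423 calls at P0 and 1023427645 at P21, a call being 1 read of 1 CpG cytosine, and those of ISCs held 1031520845 and 1040405243. Between 50.5% and 63.8% of a library's calls lay at positions with more than 1000 calls, so depth at ordinary positions was far lower than the totals, with medians of 79 and 66 calls per tested bin in differentiated cells. The epithelial identity in the label was checked on promoters of marker genes. Those of Epcam, Cdh1, Krt8, Vil1, Cdx1 and Cdx2 were between 0% and 4.32% methylated in both libraries of differentiated cells, while Krt18 (12.8% and 17.98%) and Krt20 (56.0% and 51.0%) were higher. For Vil1 at P21, 0 of 725 calls were methylated. In ISCs the promoters of Epcam, Cdh1, Krt8, Vil1, Cdx1 and Cdx2 were between 0.54% and 6.38%. They thus do not tell differentiated cells from ISCs. The promoters of 9 immune markers, from Cd3e to Csf1r, were between 63.9% and 88.7% methylated in differentiated cells, and 1 of them changed by more than 10 points with an adjusted p below 0.05, namely Ptprc, which encodes CD45 and fell from 78.4% to 66.5%, a call that was lost with molecules. Mesenchymal markers with CpG-rich promoters, such as Vim (1.75% and 2.24%) and Pdgfra (1.20% and 1.69%), were unmethylated in the epithelial libraries as well, so their promoters do not tell these cell types apart. Promoters of the 8 mesenchymal, 4 endothelial and 3 nerve and glia markers showed 0 changes past these limits.

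Over the genome, differentiated cells lost methylation at more places than they gained it. Autosomes were cut into 200-bp bins, and those that held 2 or more CpGs and 10 or more calls in each library were tested. Of these 4182260 bins, 40395 gained (0.966% of those tested) and 76104 lost (1.82%) more than 15 percentage points with an adjusted p below 0.05 by Fisher's exact test. Gaining bins went from a median level of 51.4% to 78.7% and losing bins from 70.4% to 34.5%. The median change of the 4076373 bins that had 10 or more calls in the ISC libraries too was -0.07 points, with quartiles of -5.24 and 4.37 points. Levels are of sorted pools, in which a change within cells and a change in the mixture of cells cannot be told apart.

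Among called bins the direction went with CpG density. Of the called bins with 2 CpGs 27.2% gained, of those with 5 to 8 CpGs 42.9%, and of those with 15 or more CpGs 84.7% (372 gains against 67 losses). Sparse bins started high and dense bins low, since the mean level at P0 was 79.3% with 2 CpGs and 10.8% with 15 or more. A bin below 15% cannot lose the more than 15 points that a call needs, and a bin near full methylation cannot gain them. The starting levels thus limit these shares, which were not counted with molecules. Promoters held 4.09% of the gaining bins, 2.82% of the losing bins and 3.33% of all bins tested, and gene bodies held 49.6%, 44.8% and 40.8%. Last exons held 2.55% of gaining, 1.68% of losing and 1.69% of all bins.

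Most called bins stood alone, 31017 of 34933 gaining and 56008 of 64648 losing runs being single bins, but some genes changed over long stretches. Among the 5 longest gaining runs was an intergenic run of 11 bins, 2893 bp from Foxa1, a forkhead factor of gut endoderm, at chr12:58650001-58652200 (mm9, 77 CpGs), which rose from 35.7% to 81.5% and in ISCs from 43.1% to 84.3%. Further runs of 10 bins lay in exons 8 to 10 of Baiap2l2, which encodes a protein of microvillus tips (26.7% to 66.97%), and over Mab21l2, a developmental gene within intron 40 of Lrba (37.4% to 73.2%). The losing runs included 9 bins over exon 1 and intron 1 of Pigr (81.1% to 4.93%), 9 bins over exon 2 and the flanking introns of Irf8, an interferon regulatory factor (70.0% to 15.9%), and 9 bins over exons 5 to 7 of Plekhg5 (67.4% to 24.3%). A run of 8 bins in intron 1 of Vdr, the vitamin D receptor, at chr15:97729001-97730600, fell from 75.8% to 19.7%, and in ISCs from 75.5% to 19.6%. The longest losing run, 15 bins over intron 1 and exon 2 of Aldh1b1, a mitochondrial aldehyde dehydrogenase, fell from 84.6% to 57.0% and in ISCs further, from 81.6% to 42.5%.

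At promoters, 301 genes gained (1.42% of 21141 tested) and 474 lost (2.24%) more than 10 points. The leading losses were those of Pigr, Tnfsf13, Casp1, Aqp4 and Xdh. Pigr encodes the polymeric immunoglobulin receptor, which carries IgA across the epithelium, and its promoter (chr1:132722261-132724261, 20 CpGs) was 79.6% methylated at P0 (690 calls, 95% interval 76.4 to 82.4) and 7.92% at P21 (682 calls). ISCs went from 81.5% to 23.6% at the same place. All 16 CpGs with at least 5 calls in every library fell in differentiated cells and in ISCs, and the largest fall, of 93.4 points, was 648 bp inside the gene. The adjusted p of the change in differentiated cells was 9.31e-173 by Fisher's exact test.

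Tnfsf13, the cytokine APRIL that supports IgA-producing plasma cells, went from 72.9% to 11.6% (ISCs 66.4% to 16.7%) with all 27 CpGs falling. Casp1, the protease of the inflammasome, went from 62.2% to 3.35% (ISCs 66.8% to 3.93%) with all 18 CpGs falling. The water channel gene Aqp4 went from 57.3% to 7.74%. Xdh, the purine-degrading xanthine dehydrogenase, went from 56.2% to 9.43%. In these 5 promoters the ISC libraries fell by 49.5 to 62.9 points, against 46.8 to 71.7 points in differentiated cells, and the levels of the P0 and P21 libraries did not overlap within their 95% intervals in either population.

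**Figure D1:**
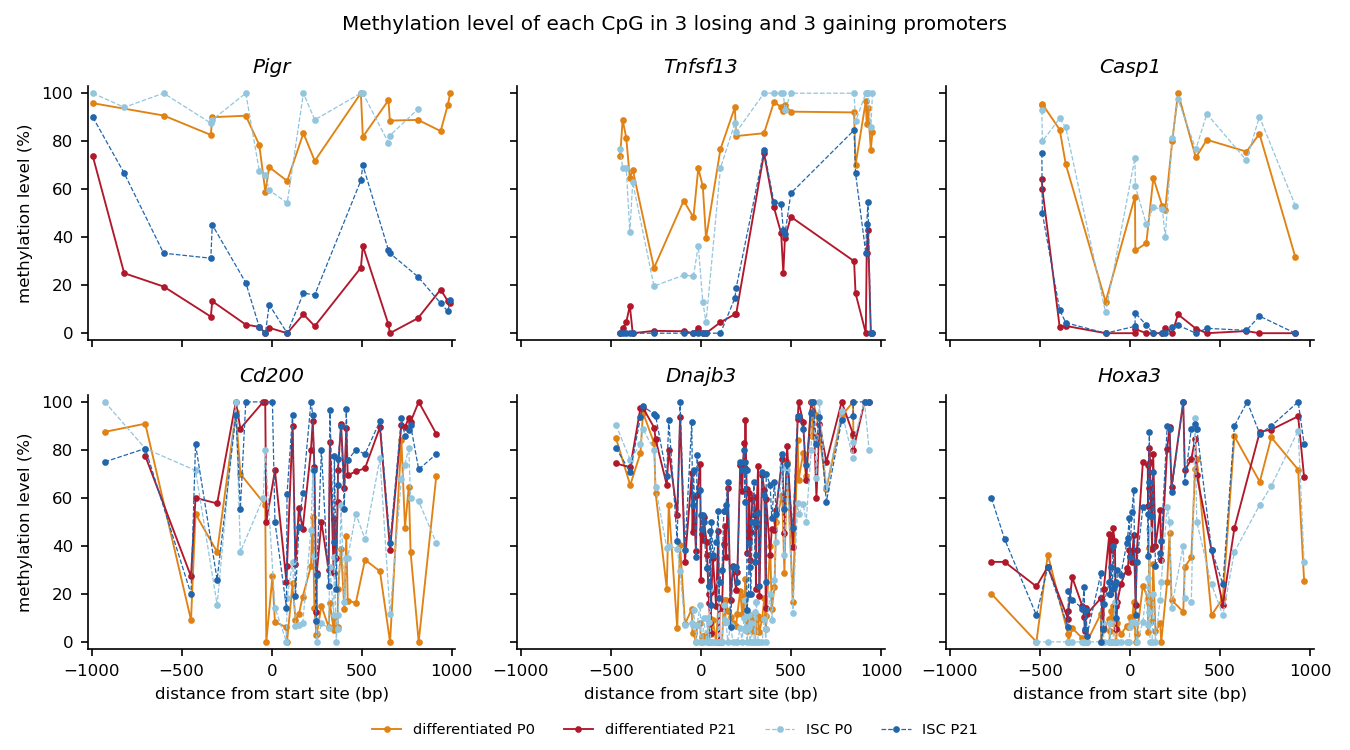
Methylation level in percent of every CpG with at least 5 calls, plotted against its distance from the start site in bp for 3 losing (top) and 3 gaining promoters (bottom), with 1 line per library. The P21 lines of differentiated cells and of ISCs lie together below the P0 lines in the top row, most closely at Casp1, and above them around the start site in the bottom row.

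The leading gains were in promoters of intermediate level. Cd200, a surface protein that restrains myeloid cells, rose from 23.6% (1703 calls) to 63.1% (1278 calls) at chr16:45408166-45410166, with 38 of 39 CpGs rising, and ISCs rose from 40.4% to 68.3%. Dnajb3, a DnaJ-type co-chaperone gene, rose from 25.7% to 56.2%. Hoxa3, a homeobox gene of anterior position, rose from 14.1% to 44.1% at chr6:52121648-52123648, with 55 of 59 CpGs rising. The annotation holds another entry named Hoxa3, whose promoter rose by 21.1 points. Mab21l2 rose from 48.7% to 77.3%, and Mxra8, a cell adhesion protein gene, from 32.4% to 61.3%. The last by rank, 1700110I01Rik, had 38 and 37 calls only and rose from 60.5% to 100%. With the exception of 1700110I01Rik, whose ISC libraries were at 80% and 81.1%, the gaining promoters named here rose in ISCs by 22.0 to 29.6 points.

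Of last exons, 431 gained (2.56% of 16847) and 502 lost (2.98%). The 6 leading gains were those of Cdkn2c, Nr1d1, Mycn, Myo3a, AI464131 and Thra. Cdkn2c, an inhibitor of cell cycle kinases, rose from 24.6% to 81.8% over the 7 CpGs of its last exon (244 and 209 calls), and its body rose from 37.0% to 86.5%. Mycn, a Myc family factor, rose from 36.8% to 79.7% over 54 CpGs. Nr1d1, the circadian repressor Rev-erb alpha, rose from 29.8% to 75.5% and Thra, the thyroid hormone receptor alpha, from 25.6% to 61.7%. Both genes run towards each other and their last exons overlap on chromosome 11, so the 2 rises share calls. Myo3a, an actin motor gene known from the inner ear, rose from 13.97% to 57.0%. AI464131, a glycosidase gene, rose from 31.1% to 67.4% over 200 CpGs.

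The 6 leading losses in last exons were those of Ascc2, Gpx2, Cul4a, Sel1l3, Fggy and Khk. Gpx2, the glutathione peroxidase of the gut epithelium, went from 78.3% to 25.3% (914 and 712 calls), Cul4a, a scaffold of ubiquitin ligases, from 76.8% to 24.6%, and Sel1l3 from 76.0% to 24.1%. Khk, the ketohexokinase that begins fructose breakdown, went from 78.6% to 22.4% over 5 CpGs with 84 and 76 calls. Fggy, a carbohydrate kinase gene, and Ascc2, a transcription cofactor gene, had 3 CpGs each and 27 to 61 calls per library of differentiated cells. Fggy went from 86.3% to 18.5% and Ascc2 from 70.5% to 1.72%, whereas ISCs were at 26.1% and 17.0% at Ascc2.

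Gene bodies had 171 gains (0.928% of 18436) and 349 losses (1.89%). Besides Cdkn2c, gains were led by Mab21l2 (28.6% to 70.1%), the apoptosis gene Pmaip1 (41.1% to 76.0%), Zcchc3 (7.04% to 36.5%), the growth factor gene Mdk (22.9% to 51.8%) and Pdx1 (38.9% to 63.0%), a factor of pancreas and duodenum. The body of Rgmb, a co-receptor of BMP signals, held 215 CpGs and went from 67.5% to 28.4%, and in ISCs from 67.3% to 28.0%. Nfkbia, the inhibitor of NF-kappa B, went from 72.3% to 22.5% over 31 CpGs, against 61.0% to 31.3% in ISCs. Gimap9, a GTPase gene known from lymphocytes, went from 91.8% to 20.8% over 4 CpGs with 73 and 48 calls. The other losses of the first 6 were Ccdc54, 1110017F19Rik and Mettl7b, which fell by 40.4 to 44.2 points over 5 to 7 CpGs, although Mettl7b rose by 5.36 points on the forward strand alone. In all, 2058 genes (9.61%) had at least 1 called part. Both the last exon and the body gained in 27 genes and both lost in 40, while the last exon gained and the body lost in 5 and the reverse held in 3.

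**Figure D2:**
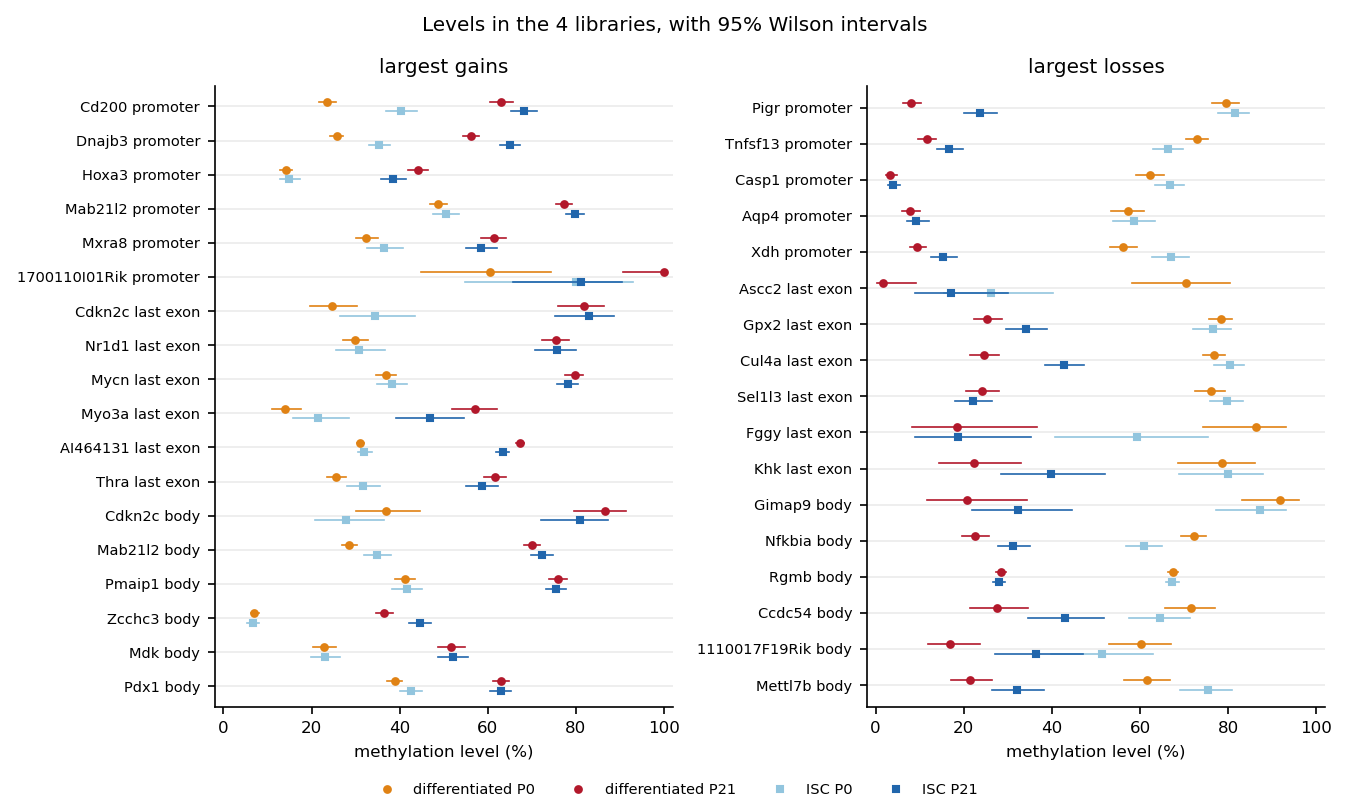
Methylation level in percent in the 4 libraries for the leading gains and losses named in the text for each gene part, where points are levels and bars are 95% Wilson intervals of counting error. In most rows the ISC squares of an age lie close to the circles of differentiated cells of that age, and Ascc2, at 70.5% in differentiated cells of P0 and 26.1% in ISCs, is an exception.

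These changes were largely those of ISCs. Of the promoters that gained in differentiated cells 87.0% also rose in ISCs, and of those that lost 87.7% also fell. The figures were 90.3% and 85.0% for last exons, 87.1% and 88.5% for bodies, and 82.8% and 85.3% for bins. Over all features with calls in the 4 libraries the sign was the same at 59.2% of promoters, 58.7% of last exons, 68.3% of bodies and 53.2% of bins. The size was smaller in ISCs, with medians of 9.26 against 13.6 points at gaining promoters and -9.70 against -14.9 points at losing promoters, but the features were chosen on the change in differentiated cells, which favours the larger value there. Over the called features, changes in both populations had r = 0.791 at 773 promoters, 0.784 at 931 last exons, 0.803 at 520 bodies and 0.729 at 115584 bins, beside 0.432, 0.406, 0.514 and 0.267 over all 21099 promoters, 16752 last exons, 18406 bodies and 4076373 bins. Choosing features by a large change raises r, and these values are a description across features that share libraries and, where they lie close together, reads.

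**Figure D3:**
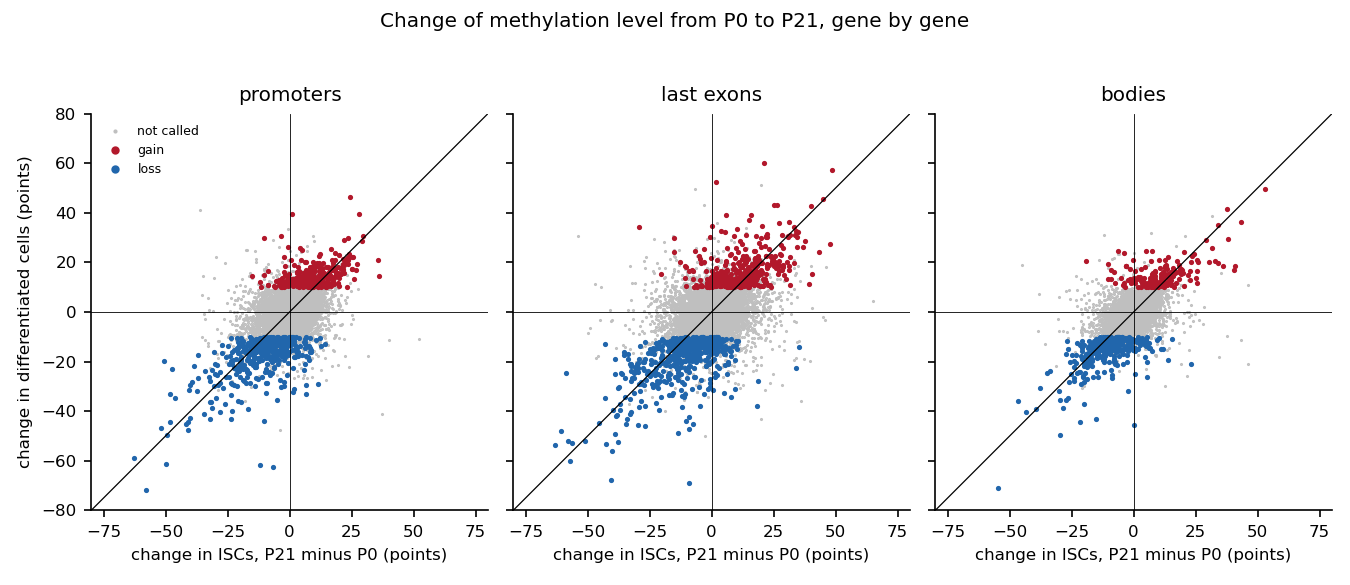
Change from P0 to P21 in differentiated cells (vertical, percentage points) against the change in ISCs (horizontal) for promoters, last exons and bodies, 1 point per gene, with gains in differentiated cells in red and losses in blue. Called genes follow the diagonal of equal change with some spread, and few of them lie on the opposite side of zero in ISCs.

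The difference between both changes was tested by a z test on the calls of all 4 libraries with Benjamini-Hochberg adjustment. A change more positive in differentiated cells than in ISCs was called at 6284 bins (0.154% of 4076373) and a more negative one at 9597 (0.235%). At promoters the counts were 274 (1.3% of 21099) and 255 (1.21%), at last exons 155 (0.925%) and 211 (1.26%), and at bodies 97 (0.527%) and 112 (0.608%). In most of these the change was larger in ISCs, since it was larger in differentiated cells at 199 of 529 promoters, 136 of 366 last exons, 97 of 209 bodies and 5919 of 15881 bins. The ISC libraries were shallower, with medians of 1019 and 1147 calls per promoter at P0 and P21, against 2319 and 1900 in differentiated cells. A change measured with fewer calls varies more. With calls thinned to the lowest library of each feature, the change differed at 443 promoters, 259 last exons, 191 bodies and 5231 bins. The role of depth in the larger changes of ISCs was not tested.

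Neighbouring CpGs are read by the same molecules, so calls are not independent. When molecules were counted in place of calls, which was done after these results had been seen, the calls for a difference from ISCs fell to 11 bins, 9 promoters, 4 last exons and 36 bodies, while 1585 gains and 12850 losses of bins in differentiated cells were left, 181 and 259 at promoters, 147 and 226 at last exons, and 121 and 290 at bodies. Gains were 34.7% of the called bins by calls and 10.98% with molecules. Each leading gain and loss of a promoter, last exon or body named above kept its call with molecules, and none of their differences from ISCs did. The runs of bins named above were not counted again with molecules. Only the gene parts called both ways are described in the next paragraphs, as values, since they were picked after the data had been seen. Runs of bins, given after them, are those found by calls.

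At promoters the set held 5 more positive and 4 more negative changes. Hsd17b13, a lipid droplet dehydrogenase gene, fell from 71.4% to 51.6% in differentiated cells and from 82.4% to 31.9% in ISCs. Wfdc15b, a protease inhibitor gene, rose from 20.3% to 32.5% in differentiated cells while ISCs fell from 40.6% to 28.8%, and its rise in differentiated cells alone lost its call with molecules. Nubpl, which serves mitochondrial complex I assembly, rose from 5.24% to 12.9% against a fall from 34.2% to 17.2% in ISCs. Hoxb5 fell from 38.9% to 30.4% against 48.6% to 20.8% in ISCs, and 1810065E05Rik was at 74.3% and 76.9% against 83.4% and 63.9% in ISCs. In all 5, differentiated cells were less methylated than ISCs at P0 and more methylated at P21, except Nubpl, where they were lower at both ages. Choosing parts by a more positive change favours such an order by itself.

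Of the more negative promoters, 2210407C18Rik was the one that changed more in differentiated cells, from 55.7% to 20.2%, while ISCs went from 45.9% to 40.8%. Fam55b was at 44.2% and 41.2% in differentiated cells and rose from 36.3% to 61.7% in ISCs. Nnat, an imprinted gene, went from 73.3% to 67.9% against a rise from 61.8% to 75.9% in ISCs. Adam24, a testis protease gene, went from 75.8% to 64.8% over 5 CpGs with 95 and 91 calls, which did not pass the test, and ISCs rose from 36.6% to 88.9%.

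Among last exons, the beta-defensin gene Defb42 stayed within counting error in differentiated cells, at 48.1% and 49.0%, and fell from 61.7% to 20.8% in ISCs. Tcl1b4 (80.4% and 97.0%, 3 CpGs), Fam110b (58.3% and 60.8%) and Dock5 (66.2% and 56.8%) completed the set. Of the 36 bodies, 9 were called in differentiated cells alone as well. The 1 of them with a more positive change was Pfn2, an actin-binding profilin gene, which rose from 62.5% to 87.2%, while ISCs were at 79.9% and 85.0%. Hoxd4 gained in both populations, from 44.2% to 64.0% in differentiated cells and from 34.4% to 68.6% in ISCs.

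The other 7 lost methylation in differentiated cells. B3gnt6, whose enzyme makes the core 3 glycan of colonic mucins, fell from 48.7% to 32.8%, while ISCs were at 40.5% and 41.2%. Cdc42ep1, a regulator of the actin cytoskeleton, fell from 49.7% to 38.0% beside 35.9% and 36.7% in ISCs, and Zyx, a focal adhesion gene, from 74.4% to 59.8% beside 69.1% and 65.1%. Tagap1 fell from 75.3% to 57.2%, the splicing factor gene Snrpb from 60.7% to 45.8%, 9430023L20Rik from 63.1% to 50.3% and Syt4 from 47.1% to 36.8%. ISC levels were 0.72 to 4.57 points higher at P21 at these 7 genes other than Zyx, where they fell by 3.95. The 95% interval of the ISC change included no change at B3gnt6, Cdc42ep1, Tagap1, Snrpb and Syt4. The difference of Syt4 from ISCs turned to 0.16 points when levels were averaged over CpGs.

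**Figure D4:**
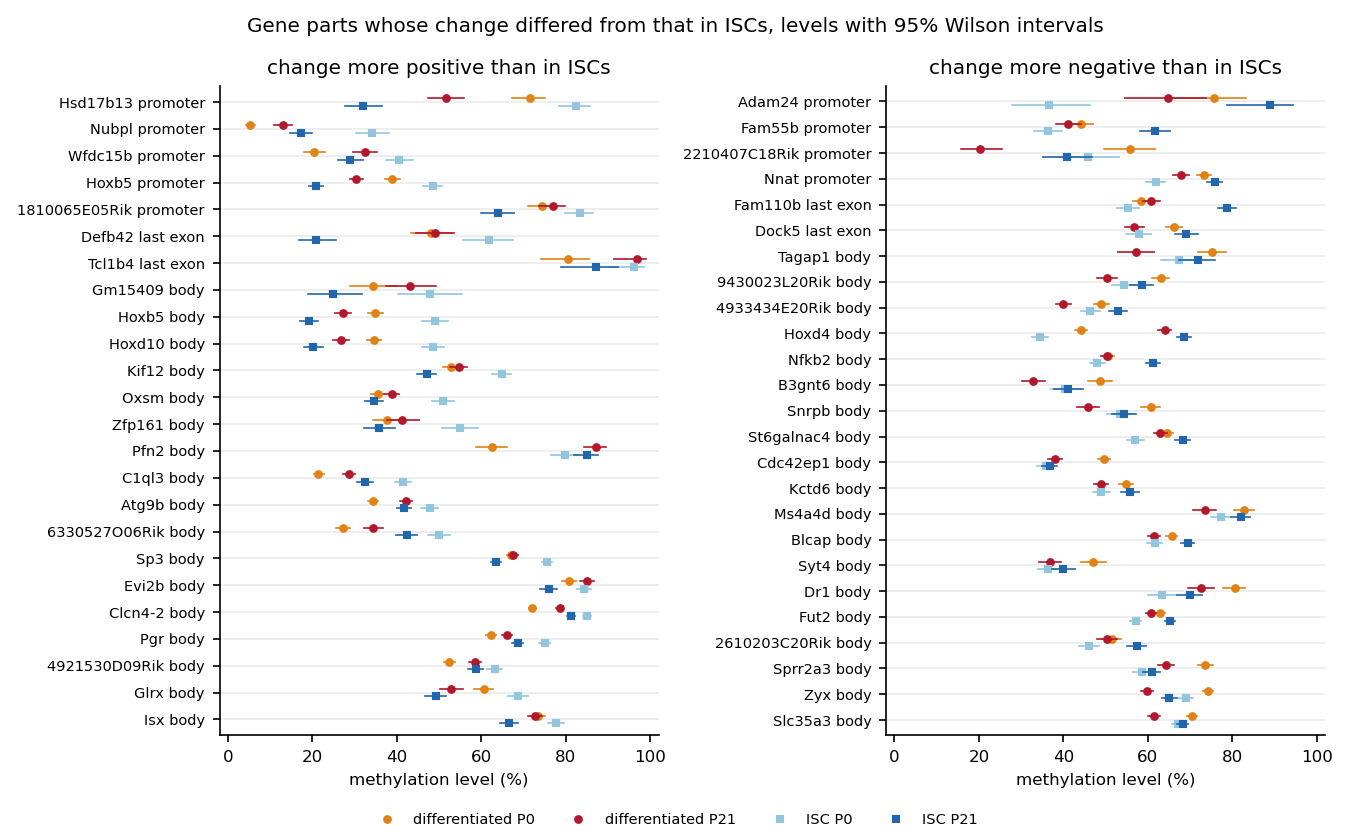
Methylation level in percent with 95% Wilson intervals in the 4 libraries for the 49 gene parts whose change differed from that in ISCs by calls and by molecules. At the 24 parts on the left the differentiated P0 circle lies below the ISC P0 square, and at the 25 on the right above it, an order that choosing parts by this difference favours by itself.

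Single bins called both ways were few. One in the non-coding gene Gm14066 at chr2:139168601-139168800 rose from 14.7% (34 calls) to 69.2% (26 calls) while ISCs fell from 75% to 31.0%. The other 10 had a more negative change, among them a bin at chr16:79139601-79139800, 48264 bp from Tmprss15, the gene of enteropeptidase, which fell from 97.3% to 27.6% and rose in ISCs from 38.1% to 79.1%. Runs of adjacent bins with a differing change, by calls, were short. Among those with a more positive change 7 held 3 bins, the most of any, and among those with a more negative change 26 held 3 or more. At Hoxd3 a run of 6 bins rose from 33.0% to 51.7% in differentiated cells and from 20.9% to 70.7% in ISCs. Bins 109 bp from Hoxb5 fell from 49.0% to 40.3%, against 62.6% to 21.8% in ISCs, and bins in exon 1 and intron 1 of Hoxd10 fell from 26.8% to 22.8%, against 46.5% to 14.4%.

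Genes were next grouped into 88 families by name, and families were ranked by the median change of their promoters in differentiated cells, which was 0.08 points over the 21099 promoters with calls in the 4 libraries. The lowest median, -7.15 points over 20 promoters, was that of the UDP-glucuronosyltransferases, enzymes that attach glucuronic acid to bilirubin, hormones and foreign compounds so that they can be excreted. Of these 20 promoters 6 (30%) lost and 0 gained, beside 2.24% losses over all promoters, and 3 of the 20 rose at all. With molecules in place of calls 5 of the 6 losses kept their call, all but that of Ugt2a1. Ugt1a7c went from 26.2% to 7.74% (ISCs 22.4% to 7.92%), Ugt1a1, the bilirubin enzyme, from 63.7% to 48.0% (ISCs 64.8% to 47.6%), and Ugt1a6a from 83.6% to 67.7%. Ugt1a6b fell from 68.9% to 48.2%, while ISCs were at 70.5% and 69.9%, a difference that passed the test by calls (-20.2 points) and not with molecules. Ugt2a1 fell from 87.0% to 70.9% while ISCs rose from 83.1% to 91.6%, and Ugt2b35 from 68.2% to 46.2% with a fall in ISCs too. Of the 6 losing promoters 2 differed from ISCs by calls and 0 with molecules. The Ugt1a promoters lie in 1 cluster on chromosome 1 that shares its later exons, and Ugt genes are alike in sequence, so their reads may be split between copies.

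Other enzymes of drug and steroid handling lost methylation at several promoters, to be read beside 2.24% losses and 1.42% gains over all promoters. Of 15 cytosolic sulfotransferases 4 lost (26.7%), with Sult1a1 going from 57.3% to 33.7% and Sult1b1 from 88.0% to 67.7%, and of 92 cytochrome P450 genes 12 lost (13.0%) and 2 gained. Among the P450 genes Cyp2t4 went from 51.2% to 33.3% in differentiated cells, whereas ISCs were at 32.2% and 39.5%, and Cyp26c1, which breaks down retinoic acid, gained, from 41.0% to 61.3%. Of the called P450 promoters 3 differed from ISCs by calls and 0 with molecules. Aldo-keto reductases had 3 losses of 15. With molecules 2 of the sulfotransferase losses, 8 P450 losses, 1 P450 gain and 3 aldo-keto reductase losses kept their call. The P450 median was -0.98 points and that of the sulfotransferases -1.30 points, so most members of both families moved little.

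The next lowest median, -5.43 points, was that of the interferon-induced GTPases and their kin, which defend cells against intracellular pathogens. Of 25 promoters 5 (20%) lost and 0 gained, beside 2.24% losses over all promoters, and the ISC median was -4.09 points. Ifit3 fell from 85.1% to 62.9%, Gbp2 from 32.7% to 17.4%, Gbp5 from 41.4% to 28.2%, Irgm2 from 73.0% to 60.1% and Ifi47 from 82.5% to 71.3%. ISCs fell likewise at these genes except Gbp5, where they were at 32.5% and 32.1%. The call of Irgm2 was lost with molecules. Toll-like receptors had a median of -3.46 points with 0 of 9 promoters called, and chemokines one of -2.22 points with losses at 3 of 35 (2.24% over all), Ccl20, Cxcl9 and Ccl26, of which Ccl20 lost its call with molecules.

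No family gained methylation at its promoters to a like degree. The highest medians were 1.48 points for sialyltransferases, 1.22 for fibroblast growth factors and 1.18 for clustered protocadherins, and the number of called promoters in these 3 families was 1 gain and 1 loss, both among sialyltransferases. In gene bodies the lowest median was -4.53 points for ribosomal proteins, of which 12 of 67 lost (17.9%) and 0 gained, beside 1.89% losses over all bodies, and the ISC median was -4.42 points. Ribosomal protein genes have many processed copies in the genome, so reads of their exons may be misplaced. In last exons NLR proteins had the lowest median, -4.59 points with losses at 2 of 21 (2.98% over all), Nlrp10 and Nlrp3, and forkhead genes gained at 5 of 27 (18.5%), namely Foxa2, Foxo1, Foxo6, Foxj1 and Foxh1, beside 2.56% over all last exons. With molecules 9 of the 12 ribosomal protein losses kept their call, and Nlrp3 and Foxh1 lost theirs.

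**Figure D5:**
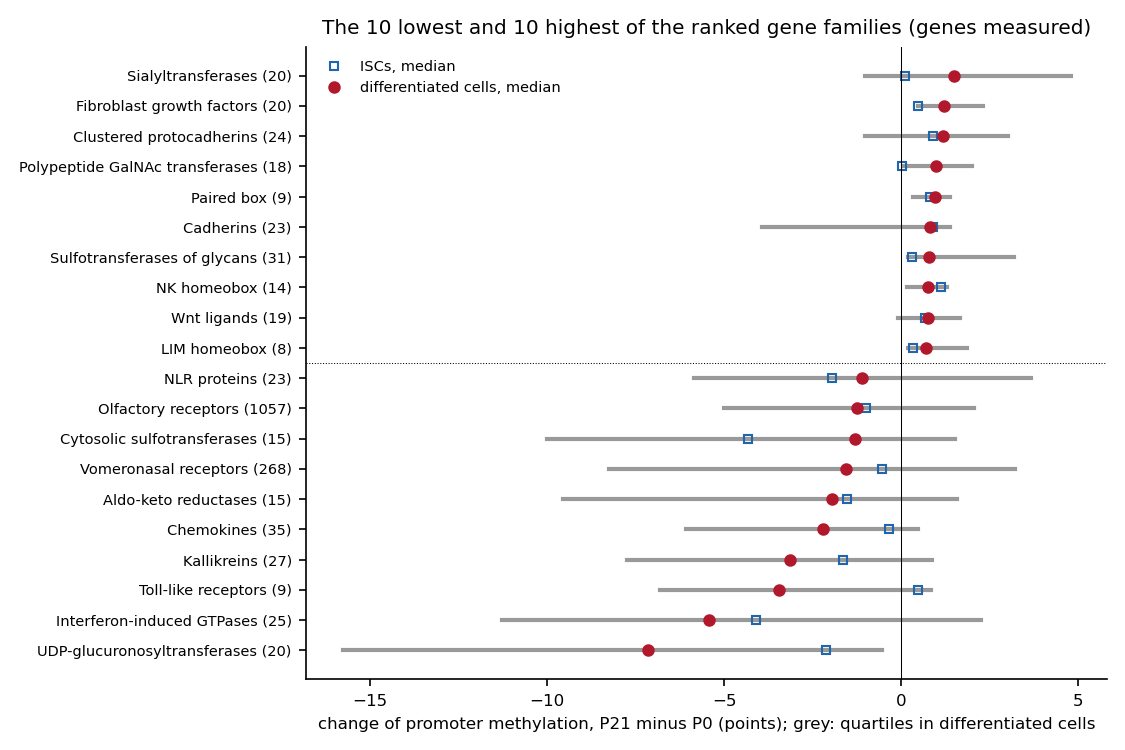
Median change of promoter methylation from P0 to P21 in percentage points for the 10 lowest and 10 highest of 88 gene families, with circles for differentiated cells, squares for ISCs and grey bars for the quartiles in differentiated cells. UDP-glucuronosyltransferases (-7.15 points) and interferon-induced GTPases (-5.43 points) lie farthest from zero, and the highest family is at 1.48 points.

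Hox genes, which give cells their position along the body axis, were called in both directions. Of 40 last exons 7 gained (17.5%) and 8 lost (20%), beside 2.56% and 2.98% over all last exons, but with molecules only 3 of these gains and 3 of these losses kept their call, and those of Hoxb3, Hoxb6, Hoxb7, Hoxb9, Hoxa11, Hoxd3, Hoxd4, Hoxd8 and Hoxd11 were lost. In the Hoxb cluster 5 of 10 lost, Hoxb5 from 68.2% to 47.3%, Hoxb7 from 57.2% to 39.96%, Hoxb6 from 50.8% to 35.9%, Hoxb9 from 51.3% to 35.9% and Hoxb4 from 33.7% to 21.7%, and Hoxb3 gained. At Hoxb5, Hoxb6 and Hoxb7 ISCs fell further, to 37.4%, 25.4% and 29.0%. In the Hoxa cluster Hoxa2, Hoxa3 and Hoxa6 gained and Hoxa4 and Hoxa11 lost, and the promoter of Hoxa2 rose from 43.9% to 67.2%. In the Hoxd cluster the last exon of Hoxd3 rose from 31.5% to 42.6%, against 22.4% to 61.8% in ISCs, and that of Hoxd4 from 51.7% to 62.7%, against 49.4% to 80.8%. At 9 of the 40 last exons the change differed from that in ISCs by calls, beside 366 of 16752 over all last exons, and none of the 9 differed with molecules. No part of a Hoxc gene was called. Neighbouring Hox genes lie close together, so their values are not independent.

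Lists of genes of known function were read in the same way, against the shares over all genes, which were 1.42% gains and 2.24% losses at promoters, 2.56% and 2.98% at last exons, and 0.928% and 1.89% at bodies. Of the calls named for these lists, those of Guca2b, Saa3, Ffar2, Il33, Fabp1 and Cd36 at promoters and of Gfi1b and B4galnt4 at last exons were lost with molecules. Of 21 genes of colonocyte ion, water and fuel transport, 4 promoters lost and 0 gained, beside 2.24% losses and 1.42% gains over all promoters. The 4 were those of Guca2b, Aqp8, Slc26a3 and Aqp4, which encode a secreted peptide that sets fluid balance, a pair of water channels and the chloride exchanger of the colon surface. The median change over the 21 promoters was -1.47 points, and at none of the 4 was a difference from ISCs called. The body of Ceacam1, an adhesion molecule of the epithelial surface, fell from 55.6% to 29.3%. Of 28 pattern recognition and antimicrobial genes, 4 promoters lost (2.24% over all), those of Pigr, Saa3, Nlrp6 and 2210415F13Rik, the last from 30.5% to 5.57%. The last exon of Duoxa2, which matures the hydrogen peroxide producing oxidase of the gut surface, gained from 27.6% to 61.9%.

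Junction genes had 1 losing promoter of 21 (2.24% over all), that of Cldn15, a claudin that lets sodium pass, which fell from 54.0% to 13.9%. ISCs fell less there, from 37.2% to 14.1%, and the difference of -17.0 points passed the z test by calls but not with molecules. Among 20 genes that sense or detoxify microbial metabolites 4 promoters lost (2.24% over all), Ugt1a6a, Ugt1a1, Ffar2, the receptor for short-chain fatty acids, and Nqo1, which went from 32.7% to 11.2%. The list of 25 intestinal transcription factors had losses at the promoters of Hnf4a (32.3% to 13.4%) and Nr3c1, the glucocorticoid receptor, and gains in the last exons of Foxa2 (10.1% to 26.6%) and Thra. ISCs fell at Hnf4a from 35.1% to 13.4% and rose at Foxa2 to 36.2%.

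Of 26 promoters of genes of the suckling to weaning switch, beside 1.42% gains and 2.24% losses over all promoters, 1 gained, Cubn, whose product takes up proteins from milk and vitamin B12 complexes, from 42.4% to 60.7%, where ISCs were at 55.5% and 58.7%. The difference of Cubn from ISCs passed the test by calls and not with molecules. The 1 loss was Fcgrt, the receptor that carries maternal IgG. The body of Amn, the partner of Cubn, rose from 26.0% to 46.3%, against 23.2% to 53.4% in ISCs. Among 24 genes of fat absorption, the promoter of Fabp1 rose from 63.6% to 78.4% (ISCs 69.1% and 67.4%) and those of Fabp2 and Cd36 fell, Fabp2 from 32.1% to 10.9%. The difference of Fabp1 from ISCs, too, passed by calls and not with molecules. Both Fabp genes encode fatty acid binding proteins of enterocytes.

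Of 16 goblet cell promoters, beside the same 1.42% and 2.24%, 1 gained, Clca3, from 43.0% to 60.9%, and 1 lost, Fcgbp, a mucus protein gene, from 55.3% to 39.4%, with ISCs at 58.7% and 53.7%. The difference of Fcgbp from ISCs passed the test by calls and not with molecules, and turned to 21.0 points on the forward strand alone. Of 16 enteroendocrine genes 0 promoters, last exons and bodies were called, and of 12 tuft cell genes the promoter of Sh2d6 and the last exon of Gfi1b gained. The enteroendocrine promoters had a median level of 9.93% at P0, and a promoter below 10% cannot be called as losing. In the list of fetal epithelium genes the promoter of Il33 rose from 12.7% to 23.8% and the body of Krt19 fell from 33.99% to 9.74%.

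Signalling and stem cell genes had low promoter levels, with list medians between 1.32% and 4.45% at P21. None of 16 stem cell, 18 Notch, 28 Wnt and 27 BMP and hedgehog promoters was called, where 1.42% of all promoters gained and 2.24% lost, and the median changes lay between 0.14 and 0.53 points. At P0 the list medians lay between 0.83% and 2.95%, and a promoter below 10% cannot lose the more than 10 points that a call needs. The lack of losses in these lists can therefore not be set against the 2.24%. The last exon of Ascl2, a factor of stem cell identity, fell from 50.4% to 10.7%, and the body of Lrig1, a brake on ErbB signals in stem cells, from 69.5% to 45.4% over 1174 CpGs. The body of the Wnt target Axin2 fell from 69.6% to 55.0%, and in ISCs further, from 71.3% to 52.7%. The body of Shh, the ligand that the epithelium sends to the mesenchyme, rose from 10.8% to 33.4%. Of 28 Wnt last exons 1 gained and 1 lost, and neither kept its call with molecules. Of 17 Notch last exons 3 lost and 0 gained, beside 2.98% losses over all, and 2 of the losses kept their call with molecules. Among these 3, only Notch1 differed from ISCs by calls. Notch1 fell in its last exon from 68.9% to 53.5% while ISCs were at 64.3% and 63.5%, and Bmpr1a, a BMP receptor, from 86.6% to 71.03% while ISCs rose from 80.3% to 87.7%. Both differences passed the test by calls and not with molecules.

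Of 37 promoters of glycan synthesis genes 0 were called, beside 1.42% gains and 2.24% losses over all promoters. Their median level at P0 was 6.24%, which limits losses as described before. Of 35 last exons 4 gained (2.56% over all), AI464131, Gal3st1 (49.2% to 79.7%), B4galnt4 and B3gnt3. The list includes genes that the paper named for methylation gain at CpG-dense 3' ends in this same series. Gal3st1, B4galnt4 and AI464131, which the paper calls Net37, are among them. Their gains were thus known when the list was made, and the comparison with 2.56% is not an independent test. Of 36 bodies 3 gained and 3 lost (0.928% and 1.89% over all), among them B3gnt6 described before. The body of Fut2, which adds fucose to mucins, was not called in differentiated cells and differed from ISCs by calls and by molecules, as did those of St6galnac4 and Slc35a3, glycan genes outside the list that were picked after their values were seen. Fut2 was at 63.0% and 60.8% in differentiated cells and at 57.2% and 65.3% in ISCs. Of 15 last exons of a list of cell cycle genes, those of Cdkn2c and Mycn gained (2.56% over all). That of Myc lost (2.98% over all), from 80.6% to 58.2%. Antigen presentation genes had 0 of 16 promoters called, beside the same 1.42% and 2.24%. Of their 15 last exons that of Tap1, which moves peptides for display, rose from 45.3% to 75.6%. That of H2-Ab1, a class II chain, fell from 67.9% to 39.6%, and the body of B2m fell from 80.1% to 66.8%. Of 15 genes that write, erase or read DNA methylation, 0 parts were called, to be read beside the low shares over all genes given before. Their promoters had a median level of 6.96% at P0, which limits losses in the same way.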

How the data were processed

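Whole-genome bisulfite sequencing was measured in 4 libraries, 1 per group of cell population and age. The authors aligned reads to mm9 with Bismark and Bowtie and deposited, per cytosine of each CpG, the counts of all calls and of methylated calls. Removal of duplicate reads is not given in the sources used here. A deposited fraction, the methylation level per position, was not used. Positions off reference CpGs, under 1% of each library, were left out, and the strands were summed. Group membership was taken from the labels.

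Levels were pooled over calls in 200-bp bins with at least 2 CpGs and in promoters, last exons and bodies of protein-coding autosomal genes (GENCODE M1), with at least 10 calls per library. P21 was compared with P0 by two-sided Fisher's exact tests with Benjamini-Hochberg adjustment over all features. Calls needed an adjusted p below 0.05 and a difference over 15 points for bins or 10 points for gene parts. The difference between populations was tested by a z test on counts with 1 added to each cell, with the same limits. Intervals (Wilson for levels, Newcombe for differences, 95%) and p-values cover counting error only, and calls that share a molecule make them too small.

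Members and lists were chosen with earlier results of these data known. Named parts were the 6 gains and 6 losses whose interval bound lay farthest from 0, 4 per direction for differences from ISCs, the 5 longest runs per direction (4 for differences), and up to 3 called members per list, except genes that are not reported here. Parts called by calls and by molecules were chosen after the data were seen. The median calls per feature set the precision. Of 438 genes in 24 lists 424 were matched. The 88 families hold at least 5 members each. Olfactory, vomeronasal and other families of near-identical genes were ranked but are uncertain. The alternatives were a minimum of 30 calls, other size limits, a cap on deep CpGs, thinning, single strands, means of CpG levels, shifted bins, promoters of 500 bp on either side and molecules (calls of the deepest CpG per 200-bp tile, at the same level). Scripts used Python 3.11.15, numpy 2.4.6, scipy 1.17.1, numba 0.67.0 and matplotlib 3.10.9 and were tested on simulated data.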

Additional observations from a re-analysis of the deposited data

Results flagged for a closer look

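The change from P0 to P21 differed between differentiated cells and ISCs, by a z test of the difference on calls, at 15881 bins, 529 promoters, 366 last exons and 209 bodies. With molecules in place of calls the counts were 11, 9, 4 and 36. The calls behind these counts come from 4 libraries without replicates, and the spread between mice was not measured.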

How the results depend on the processing

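No paired analysis was possible because each group had 1 library, and for the same reason no library could be left out. Counts are given as gains, losses and differences from ISCs. A minimum of 30 calls, a cap of 200 calls per CpG and bins shifted by 100 bp kept every count within 1.5 times. The size limit alone gave 214390, 306524 and 796229 bins, 759 losing and 1401 differing promoters, 828, 994 and 2231 last exons and 624 differing bodies. Limits of 25 points for bins and 20 for gene parts gave 17218 and 46210 bins, 35, 123 and 79 promoters, 99, 176 and 117 last exons and 26, 60 and 44 bodies, and the share of gains among called promoters went from 38.8% to 22.2% and among last exons from 46.2% to 36.0%. Thinning to the lowest library left 5231 differing bins. The forward strand gave 21401, 39387 and 8376 bins, 874 differing promoters and 349 differing bodies, and the reverse strand 21136, 39209, 8459, 813 and 362. Means of CpG levels gave 749 losing and 1223 differing promoters, 782, 981 and 2228 last exons and 572 differing bodies. Promoters of 500 bp on either side gave 342 differing. Molecules gave 1585, 12850 and 11 bins, 181, 259 and 9 promoters, 147, 226 and 4 last exons and 36 differing bodies. On the forward strand the sign turned for the body changes of Mettl7b (5.36 points) and AI464131 (4.11), the last exon of Col1a1 (-1.70), and the differences from ISCs of the Sprr2a3 body (5.18) and the Fcgbp promoter (21.0). The difference of the Il33 promoter turned on the reverse strand (-1.63) and within 500 bp (-0.77). With means of CpG levels it turned at the Cul4a last exon (0.43) and at the bodies of Clcn4-2 (-0.22), Nfkb2 (1.51), Syt4 (0.16) and Sprr2a3 (0.36). The causes were not tested. Of 106 named changes 90 kept their call with molecules, and those printed here that lost it are named beside their values.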

Other observations

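The X chromosome lay outside the comparison. Its 180 CpG-rich promoters had median levels of 17.2% and 16.7% in differentiated cells at P0 and P21 and of 17.9% and 19.4% in ISCs, against 1.79%, 1.99%, 3.21% and 3.11% at 7927 autosomal promoters of the same CpG density. The sex of the pooled mice is not given in the sources used here.

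In last exons of the keratin genes of the epithelial marker list, Krt8 went from 65.4% to 34.3% and Krt20 from 25.8% to 51.6%, and Vil1, which encodes villin, from 29.0% to 5.64%. Among mesenchymal markers the last exon of Col1a1 was called, from 57.9% to 68.5%, but its change turned to -1.70 points on the forward strand alone and its call was lost with molecules.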
